A study of Mus musculus with 6 samples.

Results

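Protocadherins are the largest subgroup of the cadherin superfamily of adhesion proteins. The genes described here are those that GENCODE M21 (GRCm38, the assembly of mm10) lists as protein-coding under a symbol beginning with Pcdh, and that reached at least 60 raw counts summed over the 6 libraries. This gave 31 genes of 69 protein-coding Pcdh genes and of 54532 genes in the count files. Of the 31, 21 lie in the gamma cluster (Pcdhga, Pcdhgb and Pcdhgc genes) and 10 lie outside the clusters. The Pcdh family was chosen with earlier results of these data known. Within it the members were chosen by their summed raw count, which does not use the difference between the genotypes. That difference was tested in a fit of all genes.

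Total RNA was sequenced from heads of mouse embryos at embryonic day 8.5, with 3 heads in each pool and 3 pools for each genotype. One genotype was wild type (WT), and the other is labelled as an Sf3b4 mutant in neural crest cells (NCC), the migratory cells that build much of the face and of the peripheral nervous system. Sf3b4 encodes a subunit of the SF3B complex, part of the splicing machinery. Sample titles call the mutants homozygous nulls, whereas the genotype entries and the design text restrict the deletion to neural crest cells. The sources used here do not give the driver of the deletion, the alleles, the strain, or whether wild-type embryos carried a Cre transgene. Heads were taken before abnormalities of form appeared. No label ties a pool to a litter or a mother, and p-values therefore reflect variation among these 6 pools alone.

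Libraries held 6930827 to 12251910 counts. Sf3b4 was read at 63.9 to 77.7 CPM (counts relative to library size, scaled by TMM factors) in wild-type pools and at 56.1 to 64.2 CPM in mutant pools, ranges that overlap (log2 fold change -0.24, SE 0.0918, edgeR quasi-likelihood test, adjusted p = 0.128). It passed in edgeR without wild-type replicate 3 (adjusted p = 0.0288) and after a correction for exon length and GC (adjusted p = 0.0460). In pooled heads fewer cells of a type and less RNA per cell cannot be told apart. Reads of 4 Y-linked genes numbered 1 in wild-type replicate 1 and 1 in mutant replicate 3, while the remaining pools had 344 to 664. Across the 14008 genes tested, 6.52% passed an adjusted p of 0.05 (371 higher and 543 lower in the mutant pools, or 647 and 536 after that correction), and the median log2 fold change was 0.00.

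Protocadherins have an ectodomain of cadherin repeats, bind mostly to the same protein on a facing cell, and lack the catenin-binding tail of classical cadherins. In mammals the alpha, beta and gamma genes stand side by side on 1 chromosome. In the alpha and gamma clusters each gene contributes a large variable exon with its own promoter, which encodes the ectodomain, the membrane span and part of the tail. That exon is spliced to a short set of constant exons shared by the whole cluster, whereas each beta gene is complete in a single exon. Neurons switch on a few of these promoters each, by contact of the promoter with distant enhancers through CTCF and cohesin, and the resulting set of surface proteins lets a neuron recognise its own branches. The C-type genes at the end of the alpha and gamma clusters are regulated differently and are expressed more evenly. Protocadherins outside the clusters are named delta-1 (Pcdh1, Pcdh7, Pcdh9, Pcdh11x), delta-2 (Pcdh8, Pcdh10, Pcdh17, Pcdh18, Pcdh19) or fall in neither class (Pcdh12, Pcdh15, Pcdh20), and they mark regions and tissues of the embryo.

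All 21 protein-coding gamma genes reached the minimum, but none of 14 alpha genes and none of 22 beta genes did. The alpha genes held 62 counts in all and 9 of them were listed at 0 in every pool. Pcdhac2, a C-type gene, supplied 51 of those 62 counts. The beta genes held 157 counts, 47 of them from Pcdhb22, and 3 beta genes were listed at 0. By genotype the alpha genes had 37 counts in wild type and 25 in mutants, and the beta genes 71 and 86, with no test of these sums. The beta sums were 2.22, 2.26 and 2.67 CPM in wild type and 2.87, 3.26 and 2.71 CPM in mutants, higher in every mutant pool, while the alpha sums overlapped. Pcdhac2 and Pcdhb22 were tested singly and did not pass (log2 fold change -0.81 and 0.48, edgeR adjusted p = 0.349 and 0.621). A count of 0 in a pool allows a level of up to 0.245 CPM in the deepest pool and 0.433 CPM in the shallowest, for counting error only. The gamma genes held 6981 counts. Outside the clusters 10 of 12 genes reached the minimum, and Pcdh11x (17 counts) and Pcdh20 (10 counts) did not. The genes just inside the minimum were Pcdhga6 (62 counts) and Pcdhga1 (78 counts), and those just outside it were Pcdhac2 (51 counts) and Pcdhb22 (47 counts). Pcdhgb8 (55 counts) is annotated as a pseudogene and also lay under the minimum. The symbol Pcdha11 is given to a pair of alpha genes, and both were counted as separate genes.

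**Figure D1:**
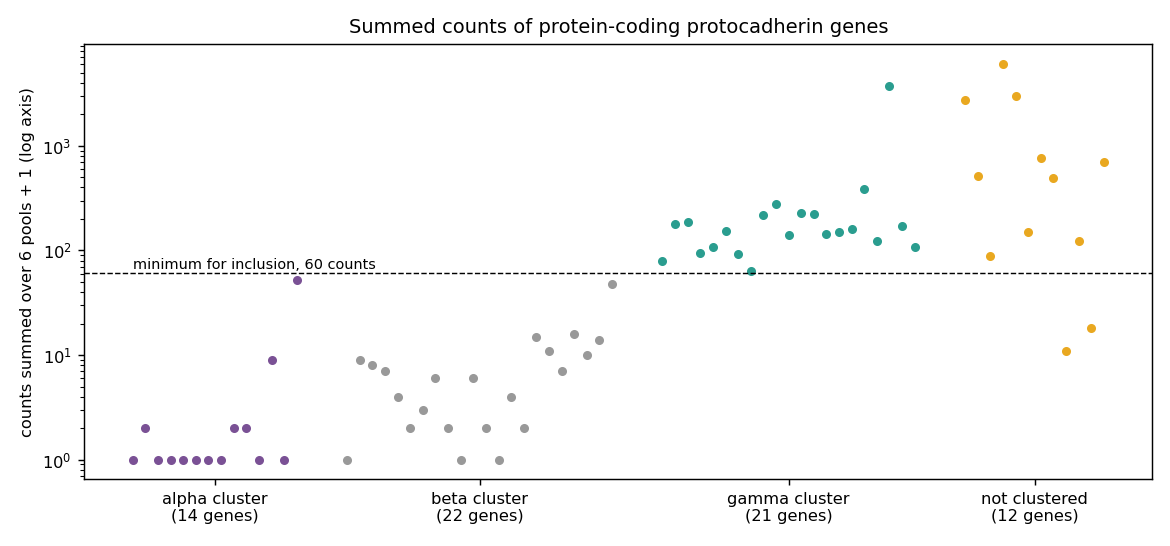
Counts summed over the 6 pools (plus 1, log axis) for each protein-coding protocadherin gene, in order along the alpha, beta and gamma clusters and, at the right, for the genes outside the clusters; the dashed line is the minimum of 60 counts. All 21 gamma genes lie above the line and all alpha and beta genes lie below it, with Pcdhac2 (51) and Pcdhb22 (47) nearest to it.

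The gamma genes lie on chromosome 18 (mm10), plus strand, and all of them end at the shared constant exons near position 37841873. The most upstream, Pcdhga1, starts at 37661793, and the last variable exon, that of Pcdhgc5, starts at 37819513. In the annotation each gamma gene shares 2116 to 3157 of its exonic bases with other genes of the same strand, which include the constant exons, and has 1570 to 4614 bases of its own. Of 752 genes in the files whose exonic bases are all shared with another gene of the same strand, 741 were listed at 0 in all pools. Gm42416, a gene model that spans from the alpha to the gamma cluster and has no base of its own, was among them. Shared exonic bases thus gave almost no counts in these files, and the gamma values are read here as those of each gene's own bases, mainly its variable exon. The counting rule itself was not stated. Pcdhga10 has no exonic base free of other genes once the antisense transcript Gm26672 is included, yet it held 149 counts while Gm26672 held 61. In the files, 203 of 476 genes covered in this way by an opposite-strand gene had counts, so reads of the opposite strands were kept apart at least in part.

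Within the gamma cluster a single gene supplied about as many counts as all the others together. Pcdhgc3, the C-type gene that in the mouse is widely expressed, was read at 68.7, 65.0 and 58.2 CPM in wild type and at 62.5, 62.6 and 65.5 CPM in mutants. The groups overlap, and the log2 fold change was -0.01 (SE 0.0854, edgeR adjusted p = 0.966), with a sign that changed between alternatives (-0.08 to 0.06). Per kilobase of its own exonic sequence Pcdhgc3 stood at 18.9 CPM, while the other 20 gamma genes ranged from 0.384 to 2.48 CPM per kilobase. Pcdhga11 (2.48 CPM per kilobase) and Pcdhgb4 (1.34) came next on both scales. Pcdhga11 was read at 7.32, 7.06 and 7.23 CPM in wild type and at 6.40, 5.998 and 5.28 CPM in mutants. All mutant pools lay below all wild-type pools, with a log2 fold change of -0.28 that did not pass (SE 0.169, edgeR adjusted p = 0.338). Pcdhgb4 stood at 5.19, 6.07 and 4.31 CPM in wild type and at 3.78, 4.95 and 4.47 CPM in mutants, so its groups overlap (log2 fold change -0.23, edgeR adjusted p = 0.549). The other C-type genes stood at 0.822 (Pcdhgc4) and 0.384 (Pcdhgc5) CPM per kilobase. Pcdhgc4 averaged 3.18 ± 0.72 CPM in wild type and 2.54 ± 0.79 CPM in mutants (SD, n = 3 pools each), and Pcdhgc5 averaged 2.11 ± 0.39 and 1.43 ± 0.55 CPM.

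**Figure D2:**
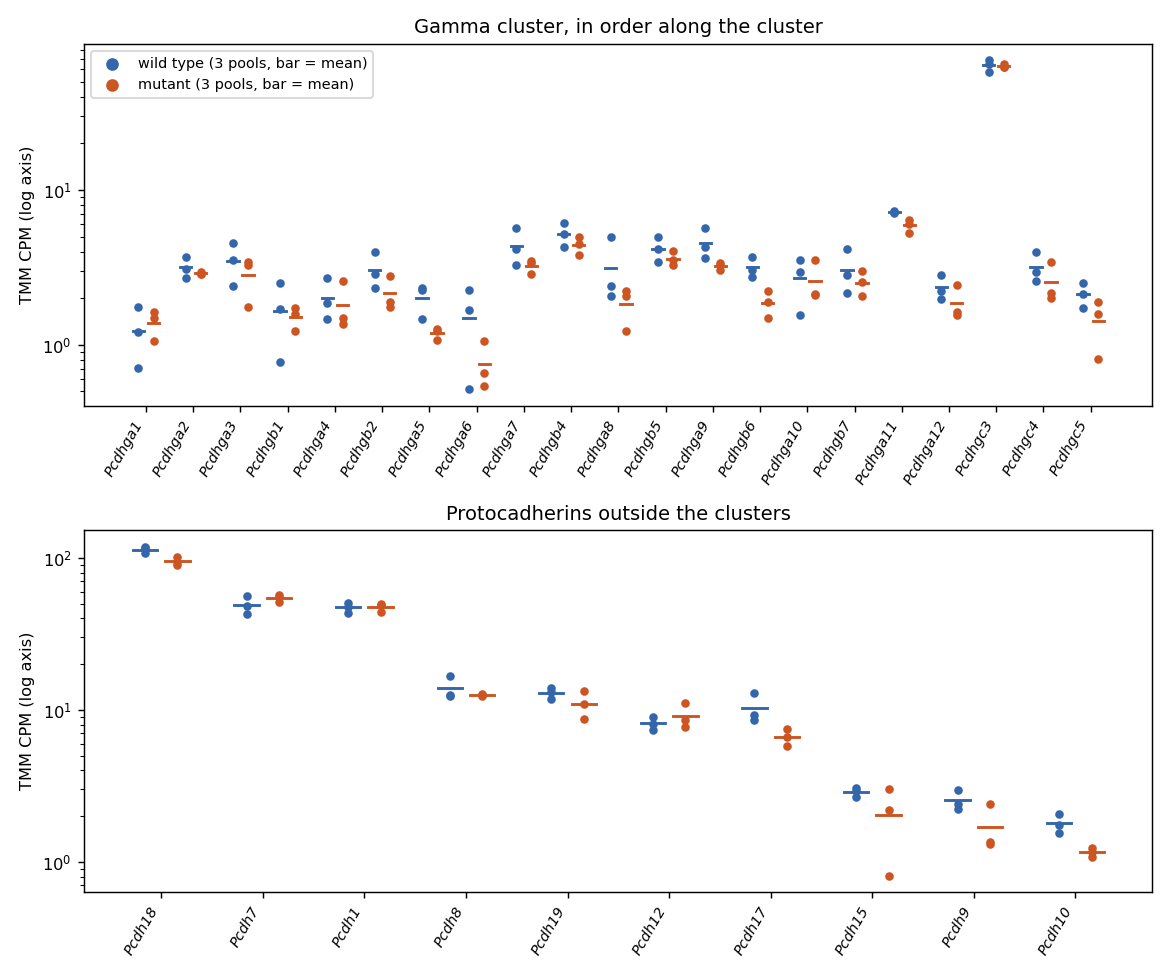
TMM-scaled CPM (log axis) of the 31 genes in each pool, wild type in blue and mutant in orange, with a bar at the mean of 3 pools; the upper panel follows the order of the gamma cluster and the lower panel ranks the genes outside the clusters by mean level. Pcdhgc3 stands at 58.2 to 68.7 CPM above all other gamma genes, and for most genes the points of the genotypes overlap.

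No gamma gene passed the test between the genotypes, against 6.52% of all genes tested (2.65% higher and 3.88% lower). All 21 were tested, and edgeR called 0 of them higher and 0 lower, with 2 at an unadjusted p under 0.05 (Pcdhga5 and Pcdhgb6) against 3246 of 14008 genes. limma-voom also called none of the 21, and DESeq2 called none of the 6 for which it gave an adjusted p. The fitted changes nevertheless lay mostly on 1 side. Log2 fold changes were below 0 for 20 of 21 gamma genes, with a median of -0.29, from -0.87 (Pcdhga6) to 0.11 (Pcdhga1). With each pool left out in turn, 16 to 20 of the 21 were below 0. Among the 3521 tested genes with summed counts of 62 to 387, the range of the gamma genes other than Pcdhgc3, 54.6% had a negative fold change, the median was -0.04 and 3.18% passed. The genes were counted in the same libraries and are not independent of each other, so these counts are a description of these pools. Standard errors were wide: their median was 0.292 on the log2 scale for the gamma genes and 0.119 for all genes tested. A change of the size of these medians was thus within about 1 standard error for a typical gamma gene, and was not detectable gene by gene at this depth.

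The gamma gene with the smallest p was Pcdhgb6. It was read at 3.06, 3.67 and 2.76 CPM in wild type and at 1.48, 2.21 and 1.90 CPM in mutants, with no overlap (log2 fold change -0.76, SE 0.275, edgeR adjusted p = 0.114). Its counts ran from 14 to 33 per pool. Pcdhga5 (-0.75) and Pcdhga9 (-0.45) also had all mutant pools below all wild-type pools. With Pcdhga11 these make 4 of 21 gamma genes with no overlap on the lower side and 0 on the higher side, against 14.4% and 13.8% of all genes tested. Among the tested genes with summed counts of 62 to 387 the lower-side share was 11.3%. Pcdhga6 had the most negative value, -0.87, but its wild-type pools ran from 0.517 to 2.26 CPM and overlapped the mutant pools at 0.542 to 1.05 CPM.

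The subfamilies had like medians. The 12 Pcdhga genes had a median log2 fold change of -0.29, with 11 below 0. The 6 Pcdhgb genes had a median of -0.27, all below 0, and the 3 Pcdhgc genes a median of -0.29. The genes with the most negative value (Pcdhga6) and the single positive one (Pcdhga1) are also those with the fewest counts in the cluster, 62 and 78.

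Summed over the cluster, gamma genes stood at 135.1, 137.5 and 108.9 CPM in wild type and at 113.1, 112.8 and 113.2 CPM in mutants. Wild-type replicate 3 was the lowest of the 6, so the groups overlap, and the mutant pools lay within 1 CPM of each other. Without Pcdhgc3 the other 20 genes summed to 66.4, 72.5 and 50.6 CPM in wild type and to 50.6, 50.2 and 47.7 CPM in mutants, where wild-type replicate 3 and mutant replicate 1 were nearly equal. Wild-type replicate 3 was the lowest wild-type pool in 16 of these 20 genes and wild-type replicate 1 or 2 the highest of all pools in each of them (9 and 11 genes). Leaving out wild-type replicate 3 took the median log2 fold change of the gamma genes from -0.29 to -0.44. Pcdhgc3 made up 50.8%, 47.3% and 53.5% of the gamma counts in wild-type pools and 55.3%, 55.5% and 57.9% in mutant pools. The shares did not overlap between genotypes, but several 95% Wilson intervals did. That of wild-type replicate 3 (50.7% to 56.2%) overlapped every mutant interval, which began at 52.7%, 52.5% and 54.5%. That of wild-type replicate 1 (48.3% to 53.4%) overlapped those of mutant replicates 1 and 2. The interval of wild-type replicate 2 (44.2% to 50.4%) overlapped none of the mutant intervals. Intervals cover counting error only.

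**Figure D3:**
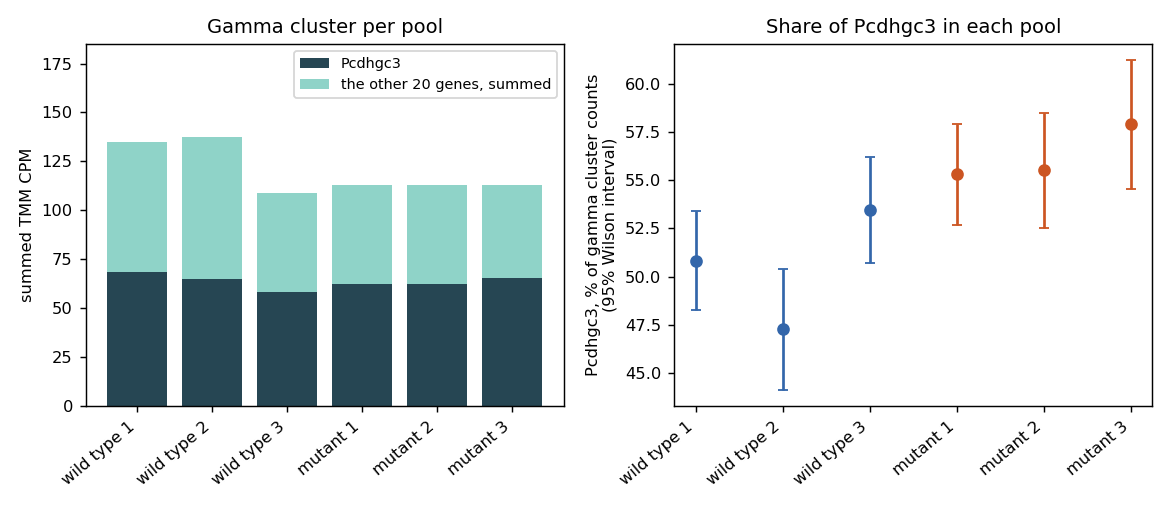
Left, TMM-scaled CPM of the gamma cluster in each pool, Pcdhgc3 in dark and the sum of the other 20 genes in light; right, Pcdhgc3 as a percentage of gamma counts in each pool with 95% Wilson intervals (the axis does not start at 0). The Pcdhgc3 part stays between 58.2 and 68.7 CPM, while the sum of the others is 66.4 and 72.5 CPM in wild-type replicates 1 and 2 and 47.7 to 50.6 CPM in the remaining 4 pools.

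Outside the clusters none of the 10 genes passed either, again against 6.52% of all genes. edgeR called 0 higher and 0 lower, with 2 (Pcdh18 and Pcdh17) at an unadjusted p under 0.05 against 3246 of 14008 genes. limma-voom called none, and DESeq2 called none of the 7 with an adjusted p. Fitted changes were negative for 7 of 10, against 6960 of 14008 genes tested, with a median of -0.24. On the lower side 3 genes had no overlap and on the higher side 0, against 14.4% and 13.8% of all genes tested. Mutant replicate 3 weighed on this median, which was -0.13 without that pool.

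Delta-2 genes held the highest level and the values nearest to the threshold. Pcdh18, which is expressed in embryonic mesenchyme and the nervous system, had the highest level of the 31 genes by CPM and per kilobase (19.4, next to 18.9 for Pcdhgc3). It lies on chromosome 3 (49743296 to 49757325, minus strand). It was read at 107.0, 115.3 and 118.1 CPM in wild type and at 89.3, 101.3 and 94.3 CPM in mutants. Every mutant pool was below every wild-type pool, and the log2 fold change of -0.26 (SE 0.0772) narrowly missed the threshold (edgeR adjusted p = 0.0582). The call depended on single choices: the adjusted p was 0.0237 without wild-type replicate 1, 0.0326 with library size alone as scaling and 0.0204 after the correction for exon length and GC, and the threshold was not passed with any of the other 5 pools left out (edgeR).

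Pcdh17, a delta-2 gene known for axon extension and synapse formation (chromosome 14, 84443563 to 84539002, plus strand), stood at 0.651 CPM per kilobase. Its wild-type pools stood at 8.62, 13.0 and 9.22 CPM and its mutant pools at 7.47, 6.63 and 5.82 CPM. These do not overlap, and the log2 fold change was -0.59 (SE 0.183, edgeR adjusted p = 0.0665). It passed without wild-type replicate 1 (0.0352), without wild-type replicate 3 (0.0471) and with no filter on low counts (0.02705), these being edgeR adjusted p values.

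For these 2 genes, the nearest to a call, the 250 bases before the RefSeq start site are shown (GRCm38.p6), as the strand reads 5′ to 3′. Capitals mark CG dinucleotides. The windows are chr3:49757317-49757566 (minus strand) and chr14:84443313-84443562 (plus strand).
Pcdh18: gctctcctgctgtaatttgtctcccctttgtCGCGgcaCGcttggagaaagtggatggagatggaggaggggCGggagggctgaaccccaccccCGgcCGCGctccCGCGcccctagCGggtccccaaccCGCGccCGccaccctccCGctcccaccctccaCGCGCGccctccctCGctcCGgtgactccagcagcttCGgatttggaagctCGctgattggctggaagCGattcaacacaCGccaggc
Pcdh17: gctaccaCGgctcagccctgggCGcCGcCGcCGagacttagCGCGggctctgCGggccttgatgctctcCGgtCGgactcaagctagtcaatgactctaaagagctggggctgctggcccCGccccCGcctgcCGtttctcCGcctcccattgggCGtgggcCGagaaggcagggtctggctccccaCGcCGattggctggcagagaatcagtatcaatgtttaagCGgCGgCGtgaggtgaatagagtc
The Pcdh18 window holds 23 CG dinucleotides and the Pcdh17 window 21, more than 86.7% and 83.7% of the 32851 promoters in the table, counted over the same 250 bases before the start, where the median is 6. Neither holds the letters TATAAA on either strand, which 12.4% of the windows do. Both are CG-rich windows, and a match or its absence describes only these letters.

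The other delta-2 genes spread more widely. Pcdh19, an X-linked gene of the developing brain, was read at 11.8, 13.1 and 13.95 CPM in wild type and at 11.0, 13.3 and 8.67 CPM in mutants, and the groups overlap (log2 fold change -0.23, edgeR adjusted p = 0.412). Pcdh8, which encodes paraxial protocadherin, known from somite formation, was read at 12.5, 16.7 and 12.3 CPM in wild type and at 12.6, 12.4 and 12.5 CPM in mutants. Only wild-type replicate 2 stood apart (log2 fold change -0.13, edgeR adjusted p = 0.638). Pcdh10 had the lowest level of the 10 per kilobase (0.0929 CPM), at 1.76, 1.55 and 2.07 CPM in wild type and 1.23, 1.16 and 1.08 CPM in mutants. These groups do not overlap, on 8 to 24 counts per pool, and the log2 fold change was -0.64 (SE 0.327, edgeR adjusted p = 0.257).

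Delta-1 genes went in different directions, all short of the threshold. Pcdh7 stood at 48.4, 56.1 and 42.7 CPM in wild type and at 55.2, 57.1 and 51.3 CPM in mutants (log2 fold change 0.16, SE 0.101, edgeR adjusted p = 0.349). Its mutant mean was higher, yet wild-type replicate 2 lay inside the mutant range, and the value ran from 0.07 without wild-type replicate 3 to 0.27 without wild-type replicate 2. Pcdh1 was read at 50.6, 47.7 and 43.6 CPM in wild type and at 44.2, 49.7 and 48.8 CPM in mutants, and its fitted difference was 0.00 on the log2 scale (SE 0.0919, edgeR adjusted p = 0.982). After the length and GC correction Pcdh7 stood at 0.26 and Pcdh1 at 0.16, neither past the threshold. Pcdh9 stood at 2.22, 2.97 and 2.41 CPM in wild type and 1.31, 2.42 and 1.35 CPM in mutants, where mutant replicate 2 reached the wild-type range (-0.56, edgeR adjusted p = 0.303). Pcdh7 and Pcdh1 held 3009 and 2760 counts, and their standard errors were close to that of Pcdhgc3.

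Pcdh12 and Pcdh15 belong to neither class. Pcdh12, a protocadherin of endothelial cells, stood at 8.06, 9.04 and 7.41 CPM in wild type and at 11.2, 8.63 and 7.72 CPM in mutants, where mutant replicate 1 alone exceeded the wild-type range (log2 fold change 0.20, edgeR adjusted p = 0.522). Pcdh15, the tip-link protein of hair cells, stood at 3.06, 2.68 and 2.93 CPM in wild type and at 3.04, 2.21 and 0.813 CPM in mutants. Mutant replicate 3 had 6 counts of Pcdh15 (log2 fold change -0.44, SE 0.335, edgeR adjusted p = 0.458).

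**Figure D4:**
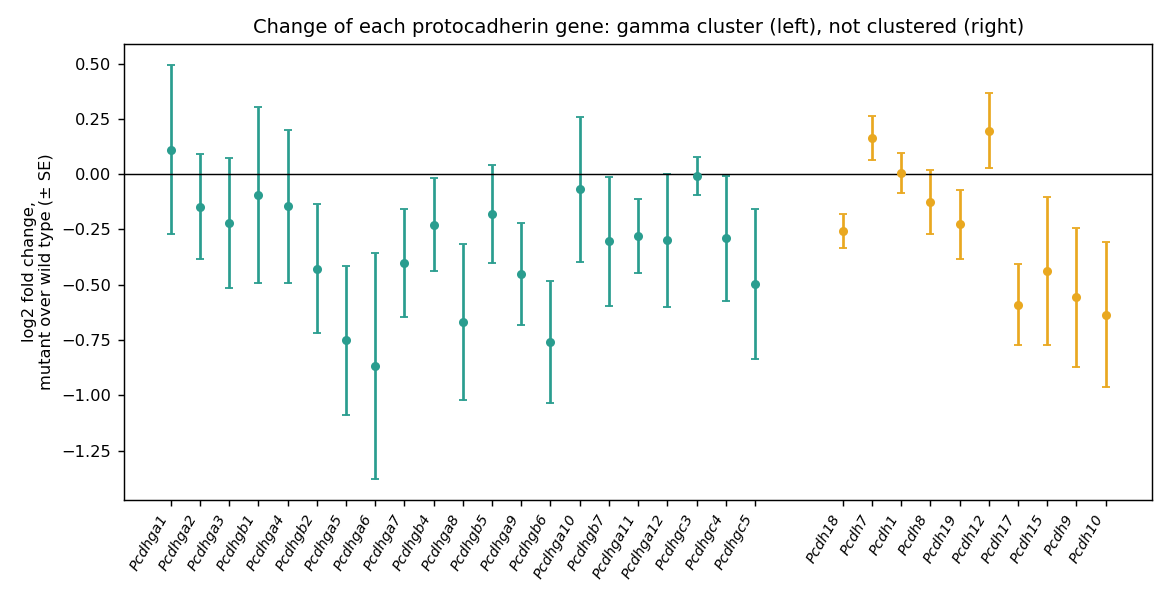
Log2 fold change, mutant over wild type, with its standard error for each of the 31 genes from the edgeR fit of all genes: gamma cluster in cluster order at the left, genes outside the clusters by falling mean level at the right. Values run from -0.87 (Pcdhga6) to 0.20 (Pcdh12), 27 of 31 lie below 0, none passed an adjusted p of 0.05, and Pcdhgc3 and Pcdh1 lie at -0.01 and 0.00.

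Across both sets, 27 of 31 genes had a negative log2 fold change, against 6960 of 14008 genes tested. On the lower side 7 of 31 had no overlap, against 14.4% of all genes. Medians of -0.29 for the gamma genes and -0.24 for the others lie close together, and their difference was not tested. Longer genes leaned lower in these libraries as a whole: the median log2 fold change was 0.07 in the shortest of 5 length classes and -0.10 in the longest. By full exon length none of the 31 genes lies in the shortest 2 classes, while 12, 12 and 7 lie in the others. The medians of those classes were 0.02, -0.02 and -0.10. For gamma genes the full length includes the shared bases, which gave almost no counts. Their own bases number 1570 to 4614, and the shortest 2 classes reach up to 3616 bases. Classes and correction were not run with own bases, so both may misplace gamma genes. After the correction for exon length and GC content the medians were -0.23 for the gamma genes, with 19 of 21 below 0, and -0.17 for the others, with 7 of 10 below 0. All members passed the filter on low counts, and 26 of 31 reached its level of 0.982 CPM in all 6 pools, so that few entered through 1 genotype.

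Regulators of the clusters were given by a list of 18 genes: CTCF, cohesin and its loading and release factors, DNA methyltransferases and other repressors. All were tested, none rose and 4 fell, with a list median of -0.05, where 2.65% of all genes tested were called higher and 3.88% lower. Wiz, a zinc finger partner of histone methyltransferases that also binds near CTCF sites, averaged 56.1 ± 5.51 CPM in wild type and 40.1 ± 2.60 CPM in mutants (SD, n = 3 pools each). It fell by 0.48 on the log2 scale (SE 0.0962, edgeR adjusted p = 0.00747). Pds5b, a cohesin-associated factor, fell by 0.37 (edgeR adjusted p = 0.0224), and the methyltransferase genes Dnmt3a and Dnmt1 fell by 0.29 and 0.26 (edgeR adjusted p = 0.0406 and 0.0429). The calls of Pds5b, Dnmt3a and Dnmt1 were lost with any 1 of the 3 mutant pools left out and with at least 1 wild-type pool left out, and that of Wiz without mutant replicate 1 and among the 4 pools with Y-linked reads. After the length and GC correction those of Dnmt3a (-0.08) and Dnmt1 (-0.17) were lost too. Both were also lost without robust estimation, with the replicate block (edgeR adjusted p = 0.0754 and 0.0831) and among the 4 pools with Y-linked reads, and Dnmt3a in limma-voom. Of 18 alternatives, Wiz was called in 16, Pds5b in 14, and Dnmt3a and Dnmt1 in 9 each. The 18 include the same edgeR fit read at a threshold of 0.1, which these 4 genes had to pass. Ctcf (-0.01), Rad21 (0.02), Smchd1 (-0.15) and Dnmt3b (-0.09), which encode the CTCF protein, a cohesin subunit and repressors of the clusters, did not pass.

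Of 18 genes for intracellular partners and proteases of protocadherins, none passed, with a list median of -0.06. The list holds the WAVE complex that some delta-2 proteins recruit, the kinases FAK (Ptk2) and PYK2 (Ptk2b) that bind clustered protocadherins, and the protease ADAM10. Abi1, a WAVE subunit gene, had the smallest p, at 0.29 on the log2 scale (SE 0.0977, edgeR adjusted p = 0.0902), and passed without wild-type replicate 3 (edgeR adjusted p = 0.0170) and with no filter on low counts (0.0396). Taf1, a TFIID subunit gene whose place in this list is uncertain, followed at -0.18. Among 14 tested genes of 18 other large and atypical cadherins none rose and 3 fell, beside the same 2.65% and 3.88% of all genes. Celsr2 and Celsr1, planar polarity cadherins, fell by 0.54 and 0.26 (edgeR adjusted p = 0.00909 and 0.0460), and Cdhr2, an intestinal brush border cadherin, fell by 2.39 from 2.28 ± 0.498 CPM, with 4 counts in each mutant pool (edgeR adjusted p = 0.00261). The call of Celsr1 was lost with any 1 pool other than wild-type replicate 3 left out, that of Celsr2 without mutant replicate 1 or 3 and among the 4 pools with Y-linked reads, and that of Cdhr2 held with each pool left out. Celsr1 also no longer passed after the length and GC correction (-0.08), in limma-voom, without robust estimation, with the replicate block (edgeR adjusted p = 0.0819) and among the 4 pools with Y-linked reads. It was called in 8 of 18 alternatives, and Celsr2 in 15, where the threshold of 0.1 again had to be passed by both.

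Summed markers of some cell types differed between the genotypes in these pools, while those of others overlapped. The calls below stand beside 2.65% of all genes tested called higher and 3.88% called lower. Summed neural crest markers (10 genes, 5 lower) stood at 448 to 490 CPM in wild type and at 330 to 373 CPM in mutants. Neural progenitor markers (8 genes, 3 lower) stood at 518 to 542 and at 459 to 504 CPM, but their median log2 fold change was -0.003. Nes, at a mean of 153 CPM in wild type and 110 CPM in mutants, weighed heavily on that sum. Sox1, Sox2, Pax6 and Fabp7 had positive values, and Sox3, Nes, Hes5 and Msi1 negative ones. Surface ectoderm markers (10 genes, 2 higher) stood at 462 to 503 and at 567 to 624 CPM, and endothelial markers (9 genes, 1 higher) at 248 to 275 and at 294 to 309 CPM. Neuronal markers (8 of 10 tested, 1 higher) overlapped at 113 to 132 and 121 to 126 CPM, but single genes moved apart. Tubb3 averaged 76.3 CPM in wild type and 65.7 CPM in mutants, and Stmn2 22.4 and 29.5 CPM, neither called. Tubb3, Elavl3, Elavl4 and Neurog1 had negative values, and Stmn2, Neurog2, Neurod1 and Isl1 positive ones. The called gene, Neurod1, held 4 counts in wild type and 55 in mutants. Head and paraxial mesoderm markers (7 of 9 tested, 2 higher and 1 lower) overlapped at 171 to 181 and 171 to 182 CPM. Erythroid markers (5 of 6 tested, none called) ran from 99.7 to 251 and from 74.5 to 165 CPM. No marker in these lists was at 0 in all pools, though the neuronal marker Nhlh1 had 3 counts. The part of these shifts in the protocadherin values was not tested.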

How the data were processed

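For every pool the authors deposited a file of whole-number counts by gene, not normalized. Extraction used a Qiagen micro kit and libraries a TruSeq total RNA kit, per the labels' protocols. The submitters' processing notes name mm10. The sources used here do not give the aligner, the counter, the annotation or the strand setting. Of 54532 gene IDs, 54495 matched GENCODE M21, the source of symbols, positions and exon lengths. Genes were filtered with edgeR's filterByExpr and scaled by TMM, and the test was edgeR's two-sided quasi-likelihood test with robust estimation and Benjamini-Hochberg adjustment over 14008 genes. The SE is the log2 fold change over the square root of F. A near-identical copy can share reads with a gene, which bears on clustered genes.

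The members and gene lists were chosen with earlier results of these data known. Named were all genes outside the clusters, the 3 highest gamma genes and the one with the smallest p, and up to 4 passing genes (else 2) per pathway list; any other gene was picked as an example with its values in view. Between pools of 1 genotype, chi-square over degrees of freedom was 3.01 to 10.2, more than sampling noise gives. Alternatives were DESeq2, limma-voom, other scalings and filters, a fit without robust estimation, a replicate block, each pool left out, the 4 pools with Y-linked reads, a length and GC correction (spline offsets), a threshold of 0.1 and minimums of 30 and 120 counts. The scripts were tested on simulated data. Promoter sequences are from RefSeq. Fits used edgeR 4.0.16, DESeq2 1.42.0 and limma 3.58.1 in R 4.3.3, and other steps Python 3.11.15.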

Additional observations from a re-analysis of the deposited data

How the results depend on the processing

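No clustered gene passed in either direction under any of the 20 alternatives, and no gene outside the clusters passed on the higher side. Not all of these could have given a different outcome. The minimums of 30 and 120 summed counts reused the same edgeR fit and changed only which genes were included. DESeq2 gave an adjusted p for only 6 of the 21 gamma genes. On the lower side 1 gene outside the clusters passed with library size alone (Pcdh18), 1 with no filter on low counts (Pcdh17), 1 after the length and GC correction (Pcdh18) and 2 at a threshold of 0.1 (Pcdh18 and Pcdh17). With 1 pool left out the number was 0 to 2. The median of the gamma genes ran from -0.44 to -0.23 and that of the other genes from -0.34 to -0.13 with 1 pool left out, and the cause was not tested. With the replicate number as a block the medians were -0.30 and -0.25, and none of these genes was called. Same-numbered pools did not deviate together (correlations -0.16, 0.05 and -0.06), so the numbers are not taken to pair them. Among the 4 pools with Y-linked reads the medians were -0.23, with 16 of 21 below 0, and -0.18. Minimums of 30 and 120 summed counts left the clustered median at -0.29. Totals of 62 to 387 counts limit what can be seen in single gamma genes other than Pcdhgc3. Over all genes, 371 were called higher and 543 lower in the edgeR fit. With 1 pool left out the counts ran from 107 to 890 higher and from 123 to 920 lower, the fewest without mutant replicate 1 and the most without wild-type replicate 3. They were 624 and 739 with no filter, 249 and 286 among the Y-positive 4 pools, 663 and 887 at a threshold of 0.1, and 647 and 536 after the length and GC correction. The replicate block gave 268 and 426.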
